A study of Mus musculus with 2 samples.

Results

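Actn2, Actn4 and Actn1, which encode alpha-actinins, Ldb3, Pdlim1, Pdlim3, Pdlim5 and Pdlim7, which encode PDZ-LIM proteins, and Myoz2 and Flnc, which encode a calsarcin and the muscle filamin, were followed in long-read RNA-seq of mouse heart. These 10 genes were taken by symbol from the transcript tables of both libraries, and each was found there, among 16269 reference genes with at least 1 count. The tissue was heart of male B6CASTF1/J mice aged 14 days, which are F1 hybrids of the C57BL/6J and CAST/EiJ strains, with no treatment or altered gene named in the labels. There is 1 group of 2 libraries, called replicates 1 and 2, so the design holds no contrast of conditions. The labels call them biological replicates and give each its own tissue sample record, and both carry 1 donor label. They mention 3x males for a tissue sample but do not say that animals were pooled or that the libraries come from separate animals, so SDs measure the spread between these 2 libraries, which may be technical. The exact tests used here know only counting error.

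The Z-disc is the boundary of the sarcomere, where actin filaments of opposite polarity from neighbouring sarcomeres meet and are crosslinked by alpha-actinin. PDZ-LIM proteins bind alpha-actinin through an amino-terminal PDZ domain, and their long forms carry carboxy-terminal LIM domains that bind kinases and other partners, whereas short forms end before the LIM domains. Calsarcins bind alpha-actinin, filamin C and the phosphatase calcineurin, and filamin C crosslinks actin at the Z-disc and at the cell membrane. Several of these genes are known for alternative last exons or for exons that differ between heart and skeletal muscle, which long reads can show within single transcripts.

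Replicate 1 held 1059016 counts on reference genes and replicate 2 held 1064679, so that 1 count was worth 0.944 and 0.939 CPM, the count scaled to a fixed library total. Of 10 cardiomyocyte markers, such as Myh6 and Tnnt2, all were detected, at 4.96% and 4.99% of the counts, although 4 were higher in replicate 1 and 2 in replicate 2 by a two-sided exact binomial test adjusted over all genes. Of 9 skeletal muscle markers, Myh1, Myh2, Myh4, Tnnt3 and Actn3 were at 0 in both libraries. The other 4 summed to 0.0591% and 0.0739% of counts, nearly all from Acta1 (623 and 776 counts), an actin that young heart also makes and the 1 of them with enough counts to test, which was higher in replicate 2. The libraries were not alike in every marker list, since atrial markers summed to 0.518% of counts in replicate 1 and 0.131% in replicate 2, with 7 of 8 higher in replicate 1, and thymus markers to 1 and 76 counts. All 4 red blood cell markers were higher in replicate 1, with sums of 1.67% and 1.23%. Transcript length also moved with the library, as the median log2 ratio of replicate 2 over replicate 1 ran from -0.27 in the shortest of 20 length bins to 0.18 in the longest. The part of these differences in the values below was not tested.

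Actn2, the alpha-actinin of the cardiac Z-disc, was the most abundant of the 10 genes and ranked 20 among all genes. Its level was 3552.4 CPM in replicate 1 and 3546.6 in replicate 2, a mean of 3549.5 ± 4.06 CPM (SD, n = 2). Myoz2, the calsarcin of heart and slow muscle, followed at 1335.2 and 1226.7 CPM, or 1280.9 ± 76.8. Both genes kept the top places in each library, far above the other 8.

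Ldb3, also called Cypher or ZASP, stood at 415.5 and 471.5 CPM, and Pdlim5, also called ENH, at 349.4 and 389.8 CPM. Their levels did not overlap, and in replicate 2 neither did the counting intervals. Pdlim1, also called CLP36, was at 99.1 and 113.6 CPM, overlapping Actn4, a non-muscle alpha-actinin, at 100.1 and 139.0 CPM. Those neighbours did not differ beyond their spread.

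Pdlim7, also called Enigma, had 66.1 and 78.9 CPM. Pdlim3, also called ALP, had 46.3 and 34.8 CPM, on both sides of Flnc at 37.8 and 39.4 CPM, so their order was not resolved. Actn1, the other non-muscle alpha-actinin, was lowest with 4 and 11 counts, or 3.78 and 10.3 CPM. Per kilobase of the most counted annotated transcript, the mean level of Actn2 was 1178.1 CPM per kb, that of Myoz2 1084.6 and that of Flnc 4.32. This scale exchanged Actn4, which went from place 5 to place 7, with Pdlim7 and left the other 8 genes in place. CPM stays the main scale, since each count is a read whatever the transcript's length. The annotated transcript that gave the length also held few of the counts of Pdlim5 and of Flnc. Counted on annotated transcripts only, the mean level fell to 6.43 CPM for Pdlim5, 2.92 for Flnc, 31.6 for Pdlim7 and 274.2 for Ldb3.

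**Figure D1:**
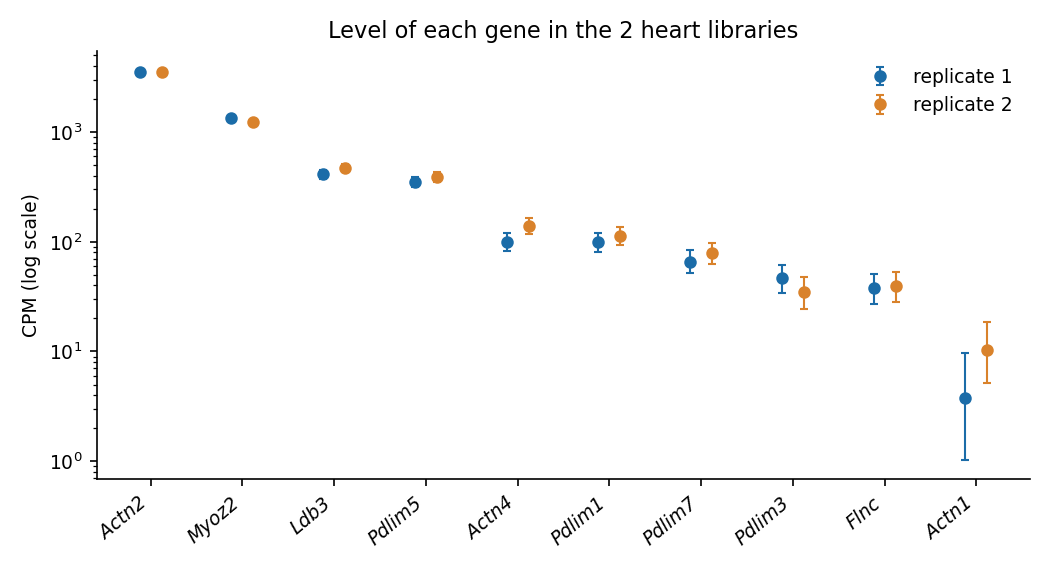
Level of each gene in CPM (log axis) in replicate 1 (blue) and replicate 2 (orange), with bars for exact 95% binomial intervals that cover counting error only. The order runs from Actn2 near 3550 CPM down to Actn1 at 3.78 and 10.3 CPM, and the intervals of the 2 libraries overlap for every gene.

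None of the 10 genes passed the threshold between the libraries in a two-sided exact binomial test with Benjamini-Hochberg adjustment over 10162 genes, where 3.26% of all genes tested did (1.65% higher in replicate 1 and 1.60% higher in replicate 2). That is 168 genes and 163, and the split became 243 and 91 under TMM scaling and 196 and 123 with DESeq2 size factors. At an unadjusted p under 0.05 there were 2 members, Actn4 and Myoz2, where 12.3% of all genes tested were under it. The exact test in edgeR called 0 members and 22 of all genes. Its common dispersion was estimated from these same 2 libraries taken as 1 group. The differences under test thus set its noise, and it is no independent check. Actn4 had the smallest p, with 106 and 148 counts, a log2 ratio of 0.47 (replicate 2 over replicate 1, on CPM plus 1), an exact p of 0.01 and an adjusted p of 0.179. Myoz2, with 1414 and 1306 counts and a log2 ratio of -0.12 (adjusted exact p = 0.299), passed only under TMM scaling (-0.21, adjusted p = 0.00944). Actn2 had a log2 ratio of -0.00, and passed when the length trend was removed (-0.12, adjusted p = 0.019) and, in the other direction, when only annotated transcripts were counted (0.20, adjusted p = 2.1e-04). The median log2 ratio of the 10 genes was 0.17, beside 0.08 for all genes tested.

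Other genes of the same families ranged from no counts to the levels of the less abundant members. Actn3, the alpha-actinin of fast skeletal fibres, and Myoz3 had no counts in either library, and Myoz1, the calsarcin of fast fibres, had 0 and 2. Pdlim4 stood at 61.4 and 41.3 CPM, Pdlim2 at 9.44 and 10.3 CPM. Flna, the widely expressed filamin, reached 30.2 and 45.1 CPM, overlapping Flnc. Pdlim4 (adjusted exact p = 0.38), Pdlim2 (1.0) and Flna (0.531) did not pass the threshold.

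All 30 other Z-disc genes in the list were detected, and 3 of them passed the same exact test, which 3.26% of all genes tested passed. Tcap, or telethonin, was higher in replicate 1 (2782 and 2369 counts, log2 ratio -0.24, adjusted exact p = 3.6e-07). Fhl2, a LIM protein, was higher in replicate 2 (1432 and 1987 counts, 0.46, adjusted exact p = 4.6e-18), as was Xirp2 (17 and 42 counts, 1.25, adjusted exact p = 0.048). In the length bins of their main annotated transcripts the median log2 ratio was -0.15 for Tcap, 0.0 for Fhl2 and 0.18 for Xirp2. The median log2 ratio of the 30 genes was 0.16.

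The transcript models behind these levels fell into the classes that the authors deposited. Known models match an annotated transcript, ISM models are an incomplete stretch of one, NIC models join known splice sites in a new way, NNC models use a new splice site, and Genomic models lie over genomic sequence without matching the splicing. Models with 98.9% and 99.1% of the members' multi-exon counts began and ended at annotated exon edges, so a start or an end is known here to the exon and not to the base. Over all reference genes, Known models held 80.7% and 80.4% of counts. The members ranged from nearly all Known to nearly none.

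Pdlim5 had 98.1% and 99.0% of its counts on models that were not Known (mean 98.6%, percentile 99.5 among 5396 genes tested). Flnc had 97.5% and 90.5%, Pdlim7 67.1% and 63.1%, Ldb3 50.7% and 49.8%, Actn2 44.7% and 36.5%. Actn4 followed with 34.0% and 35.8% and Pdlim3 with 22.4% and 29.7%. Pdlim1, at 10.5% and 7.44%, and Myoz2, at 9.34% and 8.04%, lay below the median gene, which had 16.1%. Without ISM models the mean share of Ldb3 went from 50.2% to 17.5% and that of Myoz2 from 8.69% to 5.69%, and with multi-exon models only that of Pdlim1 went from 8.96% to 3.68%. Long transcripts had more such counts in general, with a median of 5.39% for genes whose main annotated transcript was under 1000 bases and 44.1% for those of 6000 bases or more, and Flnc-202 has 8939 bases.

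**Figure D2:**
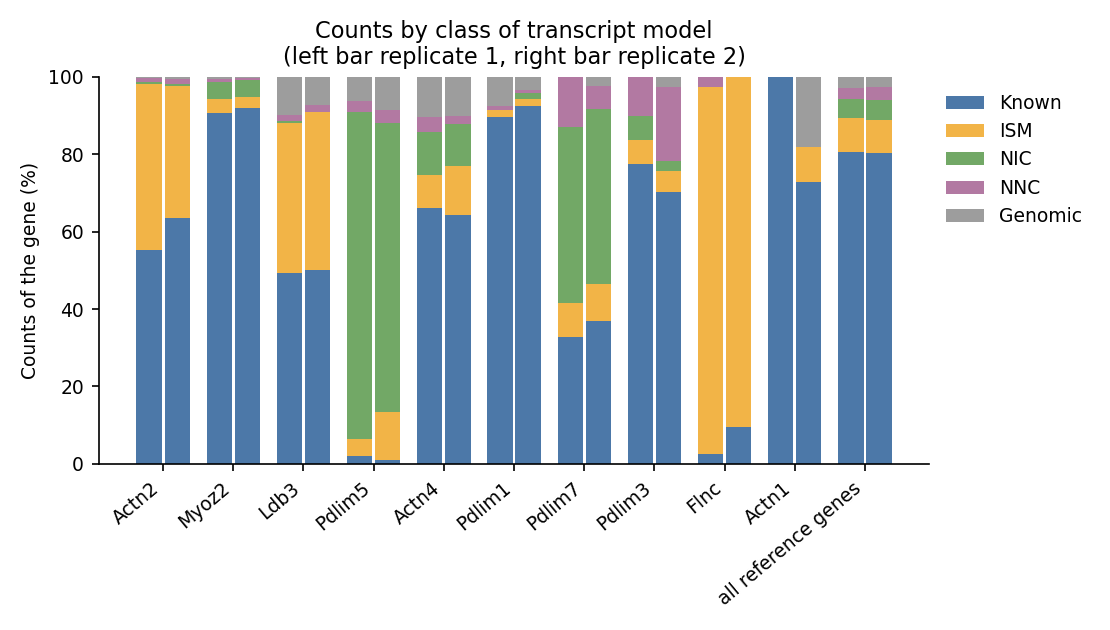
Share of each gene's counts (%) by class of transcript model, with replicate 1 as the left and replicate 2 as the right bar of each pair. ISM models fill most of Flnc and a large part of Actn2 and Ldb3, and NIC models fill most of Pdlim5 and much of Pdlim7, whereas Known models hold 80.7% and 80.4% over all reference genes.

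Actn2 lies on the minus strand at chr13:12269426-12340760 (mm10). Its counts came from 62 models in replicate 1 and 56 in replicate 2, of which 39 intron chains were in both, yet only 2 models had 5% of the counts or more. Actn2-201, the annotated transcript of 21 exons, held 2074 and 2384 counts (55.1% and 63.1%). A single ISM model of 10 exons, starting at exon 12 and running to the annotated last exon, held 1376 and 1061 counts (36.6% and 28.1%).

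The number of counts over each exon showed this as a step. Exon 12 was covered by 3655 counts in replicate 1 and 3657 in replicate 2, and exon 11 by 2266 and 2584. On either side of that step the coverage was nearly flat, since exon 1 had 2138 and 2466 counts and exon 21 had 3752 and 3753. Splicing inside the gene hardly varied, as each of the 7 annotated internal exons with any skipping was skipped in at most 1 count per library. The step lies between exon 11 and exon 12, chr13:12288507-12288657, a coding exon of 151 bases. The short model carries the annotated edges of exon 12, so where its reads began within that exon is not known. The junction in the annotated transcript (GENCODE M21) is shown because the short model begins with exon 12 and lacks exon 11. The last 30 bases of exon 11 are in lower case and the first 30 of exon 12 in capitals.
Actn2 exon 11 to exon 12: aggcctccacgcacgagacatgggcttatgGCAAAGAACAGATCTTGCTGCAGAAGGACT

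The share of Actn2 counts whose first splice donor was that of exon 1 was 56.7% in replicate 1 (95% interval 55.1 to 58.3) and 65.2% in replicate 2 (63.7 to 66.7). These intervals did not overlap, and the two-sided Fisher's exact test gave an adjusted p of 1.2e-10 over 4830 genes, of which 0.124% passed. The share of counts off Known models differed in the same way (adjusted p = 1.1e-09, Fisher's exact test, background 0.222% of 5396 genes). Actn2 was the only one of 9 members tested to pass either test, and both calls were lost without ISM models, where the donor share was 99.2% and the share off Known models 3.38% on average. Among 293 genes with at least 1000 counts in all, Actn2 ranked 9 by the share of its largest ISM model that keeps the 3′ end, at 32.3% against a median of 0.729%.

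Actn4 lies at chr7:28893248-28962340 on the minus strand. Actn4-201, of 21 exons, held 70 and 94 counts (66.0% and 63.5%), an unspliced Genomic model over the last exon 11 and 14, and a NIC model of 21 exons 8 and 9. Coverage rose slowly along the gene, without the step of Actn2, from 86 and 114 counts at exon 1 to 106 and 146 at exon 21. At 2 places Actn4 carried a choice between alternative coding exons, and their sequences are shown with 10 bases of each neighbouring exon in lower case and the alternative exon in capitals.
Actn4 exon 8, 5′ choice, chr7:28911490-28911575: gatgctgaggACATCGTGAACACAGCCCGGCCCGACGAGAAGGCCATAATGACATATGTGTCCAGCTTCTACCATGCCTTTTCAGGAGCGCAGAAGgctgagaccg
Actn4 exon 8, 3′ choice, chr7:28909903-28909988: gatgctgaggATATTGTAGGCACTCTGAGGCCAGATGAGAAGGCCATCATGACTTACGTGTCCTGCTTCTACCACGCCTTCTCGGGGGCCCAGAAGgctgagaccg
Actn4 exon 19, 81 bases, chr7:28895432-28895512: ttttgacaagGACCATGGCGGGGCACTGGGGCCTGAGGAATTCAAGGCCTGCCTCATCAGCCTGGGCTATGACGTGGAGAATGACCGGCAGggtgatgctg
Actn4 alternative to exon 19, 66 bases, chr7:28895121-28895186: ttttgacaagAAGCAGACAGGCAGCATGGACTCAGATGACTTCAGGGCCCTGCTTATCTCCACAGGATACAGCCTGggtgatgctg

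Both choices for exon 8 have 86 bases, of which 65 (75.6%) are the same when the exons are set side by side without gaps. The 5′ choice was in 86.5% of spanning counts in replicate 1 (77 of 89) and 85.7% in replicate 2 (102 of 119), and the 3′ choice in 13.5% and 14.3%. No model held both. At the exon 19 choice, the 81-base exon was in 88.3% and 90.8% and the 66-base exon in 12.6% and 9.09%, with 1 count in replicate 1 on a model that held both. On annotated models only, the mean share was 99.5% for the 81-base exon and 0.526% for the 66-base exon, in place of 89.5% and 10.9%.

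Models that cover both places show the choices together. The 5′ exon of 86 bases went with the 81-base exon in 76 and 101 counts and with the 66-base exon in 2 and 0. The 3′ exon of 86 bases went with the 66-base exon in 10 and 10 counts and with the 81-base exon in 2 and 6. The less used exons sat mostly in the same transcripts in both libraries, although the counts are small.

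Actn1, at chr12:80167547-80260371, was too sparse for shares. Its 4 counts in replicate 1 fell on Actn1-202 and Actn1-201, 2 each, and its 11 in replicate 2 fell on the same transcripts, 5 and 3, on a Genomic model, 2, and on an ISM model, 1. Both annotated transcripts have 21 exons and start from the same exon.

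Ldb3 lies at chr14:34526603-34588682 on the minus strand. Its most counted model was Ldb3-203, of 8 exons, with 190 and 226 counts (43.2% and 45.0%). This is a short form with 981 coding bases, against 1866 to 2169 in the annotated protein-coding transcripts that end in the long last exon. An ISM model of 7 exons with the same last acceptor held 49 and 59 counts, and a Genomic model over the long last exon 35 and 32. A pair of ISM models that end in the long last exon had 22 and 25 counts (9 exons) and 13 and 27 counts (6 exons).

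The last splice acceptor separates the short from the long forms of Ldb3. The acceptor of the short last exon took 271 of 386 counts in replicate 1 and 315 of 449 in replicate 2, which is 70.2% in both. Among models that also began with the annotated first exon, the long last exon held 13.1% (29 of 222; 95% interval 8.93 to 18.2) and 10.9% (28 of 257; 7.36 to 15.4), lower than the 29.8% and 29.5% among all multi-exon models. The share of the long form thus depends on which models are counted.

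Ldb3 is known for a coding exon used in heart and another used in skeletal muscle. The heart exon, 359 bases at chr14:34576986-34577344, was in 282 and 329 counts. The skeletal muscle exon, 204 bases at chr14:34571718-34571921, was in 1 and 0 counts. That is 0.353% of the sum of both in replicate 1 (exact 95% interval 0.00895 to 1.95), and 0 of 329 in replicate 2, which allows a share of up to 0.912% taking 3 counts as the limit (exact 95% upper limit 1.11%). The heart exon occurred with either last exon, in 244 and 294 counts with the short one and 38 and 33 with the long one.

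An exon of 186 bases of the long forms, chr14:34555343-34555528, was included in 82.7% of 75 counts in replicate 1 and 94.7% of 75 in replicate 2. The intervals, 72.2 to 90.4 and 86.9 to 98.5, overlapped (Fisher's exact p = 0.0368, adjusted p = 1.0 over 13062 exons). Among all exons tested 0 passed, with 191 at an unadjusted p under 0.05.

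**Figure D3:**
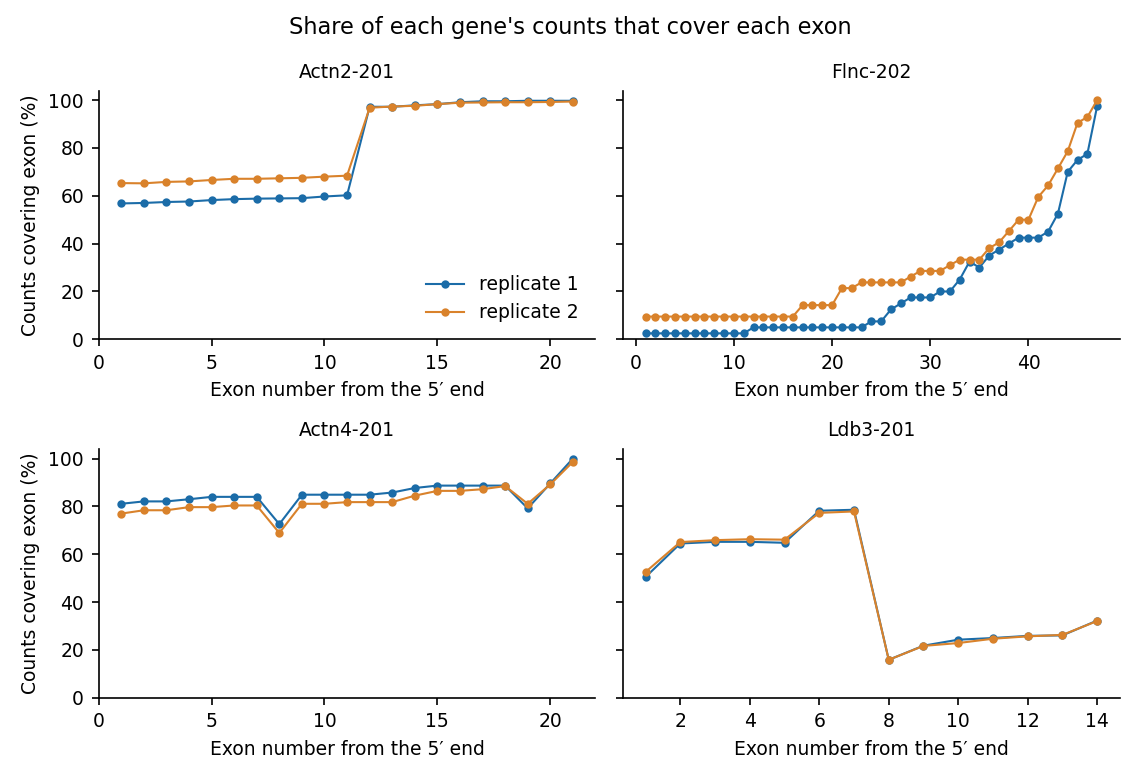
Share of each gene's counts (%) that cover each exon of an annotated transcript, numbered from the 5′ end, in replicate 1 (blue) and replicate 2 (orange). Actn2 has 1 step, between exon 11 and exon 12, Flnc climbs over its whole length, Actn4 dips only at exons 8 and 19 where alternatives exist, and Ldb3 drops from exon 7 to exon 8 where the short form ends.

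Pdlim5 lies at chr3:142239590-142395696 on the minus strand and was spread over 38 and 50 models. The models that carried it were not annotated, as Known models held 7 and 4 counts of 370 and 415. The most counted, a model of 9 exons, held 215 and 251 counts (58.1% and 60.5%), and the next, also of 9 exons, 55 and 25 (14.9% and 6.02%). A model of 8 exons had 21 and 27 counts, and a Genomic model over the short last exon 20 and 28.

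The pair of 9-exon models shares its first exon, its last exon and all but 1 splice site, which is the 3′ edge of an internal coding exon. In the most counted model that exon spans chr3:142312109-142312214, 106 bases, and no annotated transcript holds it, although the model is classed as NIC. In the other it spans chr3:142312123-142312214, 92 bases, as in 7 annotated transcripts. Divided by 3, the lengths leave remainders of 1 and 2, so the reading frame past the exon differs.

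Over all Pdlim5 models with that exon's 5′ edge, the 106-base form had 258 of 330 counts in replicate 1 (78.2%, 95% interval 73.3 to 82.5) and 309 of 363 in replicate 2 (85.1%, 81.0 to 88.6). The intervals overlapped, and the Fisher's exact p was 0.0231, or 1.0 adjusted over 17029 splice-site choices, of which 0.0117% passed. The 106-base form was the main one in both libraries. With the short last exon it had 251 and 306 counts, beside 68 and 39 for the 92-base form.

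The short last exon of Pdlim5, chr3:142302080-142303421, took 94.8% of last acceptors in replicate 1 (329 of 347; 95% interval 91.9 to 96.9) and 94.5% in replicate 2 (358 of 379; 91.7 to 96.5). These intervals lie above those of Ldb3, 65.4 to 74.7 and 65.7 to 74.4. The long last exon held 4.91% and 4.79% of the counts with either. Counting only models that began at the annotated first exon, the long share was 3.08% (95% interval 1.42 to 5.77) and 4.11% (2.21 to 6.93). The annotated coding lengths are 642 to 1011 bases for transcripts with the short last exon and 1446 to 1842 for those with the long one.

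An 18-base coding exon lies upstream of the short last exon, at chr3:142304705-142304722, with other exons between them. It is shown in capitals between 10 bases of its neighbours from an annotated short transcript.
Pdlim5 exon of 18 bases: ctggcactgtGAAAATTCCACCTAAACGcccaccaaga

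This microexon was included in 94.7% of counts in replicate 1 (322 of 340) and 92.4% in replicate 2 (341 of 369). It was nearly always there with the short last exon, present in 315 and 337 counts and skipped in 10 and 17. With the long last exon it was present in 6 and 4 and skipped in 8 and 11. Those are few counts, and the difference was not tested.

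Most Pdlim5 counts began at 1 of 2 exons. The donor of the upstream exon was first in 84.4% (293 of 347) and 84.2% (319 of 379) of counts, and that of the next exon, chr3:142391713-142391850, in 8.65% (30) and 8.71% (33). Their shares hardly differed between the libraries (Fisher's exact p = 1.0 for the upstream exon). The next exon was also internal in 300 and 320 counts, and a read incomplete at its 5′ end would look the same as one starting there. Use of a downstream promoter was not tested. RefSeq (GRCm38.p6) has a start at each exon. Because counts began at both, 250 bases before and 50 after each start are printed, with a match to TATAAA on either strand in capitals.
Pdlim5 upstream promoter, chr3:142395647-142395946: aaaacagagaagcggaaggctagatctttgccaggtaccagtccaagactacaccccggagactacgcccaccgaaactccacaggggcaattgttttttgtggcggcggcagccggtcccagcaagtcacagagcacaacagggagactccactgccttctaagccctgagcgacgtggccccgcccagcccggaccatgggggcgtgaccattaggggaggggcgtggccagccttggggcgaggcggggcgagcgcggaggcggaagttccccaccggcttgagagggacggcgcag
Pdlim5 downstream promoter, chr3:142391801-142392100: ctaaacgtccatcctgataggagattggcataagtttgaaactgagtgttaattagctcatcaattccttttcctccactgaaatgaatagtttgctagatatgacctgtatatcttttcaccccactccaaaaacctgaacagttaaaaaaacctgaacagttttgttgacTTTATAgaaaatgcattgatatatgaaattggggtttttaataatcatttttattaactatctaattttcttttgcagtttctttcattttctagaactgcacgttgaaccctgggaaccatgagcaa

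The upstream promoter sequence had 64.7% G and C and 22 CG pairs, and the downstream one 33.3% and 2. The TATAAA match, on the strand opposite to the printed one, was in the downstream sequence only, and 13.6% of the 32851 RefSeq promoters hold one. Among the members' promoters, searched the same way, a MEF2 motif (3.19% of all promoters) was in that of Myoz2 and a CArG box (1.63%) in that of Ldb3. The letters CATTCC (14.7%) were in those of Flnc, Actn4 and Pdlim3. None of these matches overlapped. A match is a description of letters and not of binding.

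Pdlim7 lies at chr13:55495795-55513676 on the minus strand. Its most counted model, 26 and 31 counts (37.1% and 36.9%), had 7 exons and was classed as NIC. Pdlim7-201, with 13 exons and the long last exon, held 19 and 28 counts (27.1% and 33.3%), and Pdlim7-203, with 8 exons and the short last exon, 4 and 3. A NIC model of 6 exons with the short last exon had 4 and 2. The sequences show the exon that the 7-exon model skips, in capitals between 10 bases of each neighbour, and the bases it adds to the next exon, in capitals before the first 10 bases of the annotated form.
Pdlim7 exon of 119 bases, chr13:55508208-55508326: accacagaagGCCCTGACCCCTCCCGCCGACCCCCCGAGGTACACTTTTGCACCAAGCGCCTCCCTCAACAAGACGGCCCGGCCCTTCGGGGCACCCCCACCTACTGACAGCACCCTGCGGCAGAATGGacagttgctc
Pdlim7 added bases, chr13:55507625-55507649: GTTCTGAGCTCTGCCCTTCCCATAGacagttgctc

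The 119-base coding exon was in 43.1% of spanning counts in replicate 1 (28 of 65) and 45.5% in replicate 2 (35 of 77). The next exon starts at the annotated site, giving 137 bases, or 25 bases earlier, giving 162 bases. No GENCODE M21 transcript holds the longer form, although the 7-exon model with it is classed as NIC, so the site cannot be called new. These choices went together. Where the 119-base exon was present the 162-base form had 0 and 0 counts and the 137-base form 27 and 34. Where it was skipped the 162-base form had 34 and 36 counts and the 137-base form 1 and 3.

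The last exon was tied to the same choice. The short last exon had 38 and 39 counts, 55.9% and 47.6% of last acceptors, and the long one 30 and 41. With the short last exon the 119-base exon was skipped in 34 and 36 counts and present in 4 and 3. With the long last exon it was present in 24 and 32 counts and skipped in 3 and 5.

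Read from the start codon of Pdlim7-203 on the reference sequence, the 7-exon model has 348 coding bases before a stop codon at chr13:55507580, inside the 162-base exon. Pdlim7-203 has 666 coding bases and Pdlim7-201 has 1371. No protein was measured.

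**Figure D4:**
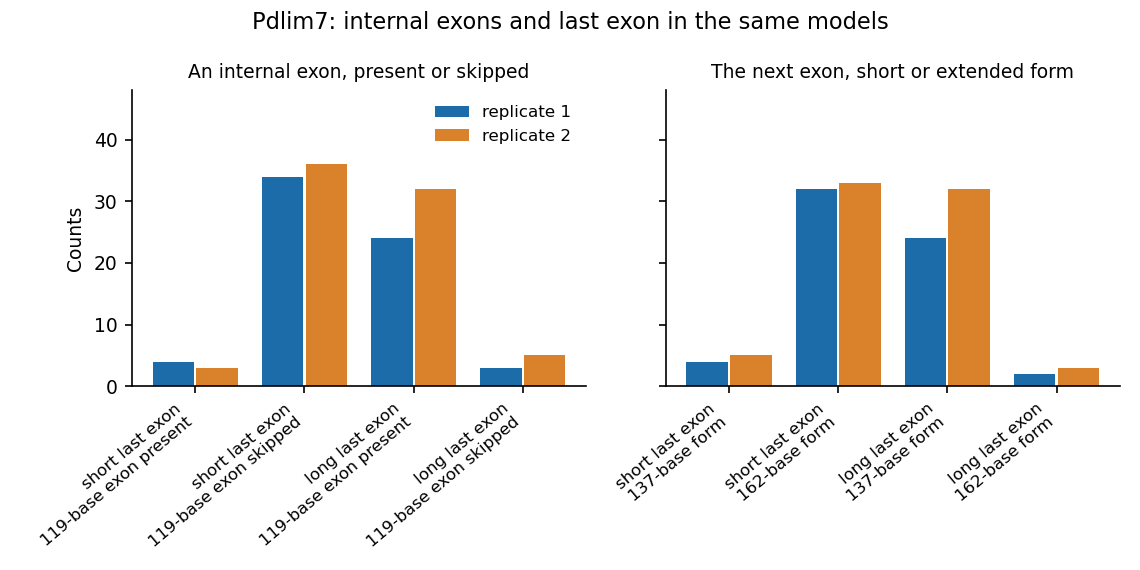
Counts of Pdlim7 models with the short or the long last exon, split by an internal exon of 119 bases (left) and by the form of the next exon (right), in replicate 1 (blue) and replicate 2 (orange). The short last exon goes with the skipped exon and the 162-base form (34 and 36, 32 and 33 counts), the long one with the included exon and the 137-base form (24 and 32 in both panels).

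Pdlim1 ended in 1 last exon, and so did Pdlim3 but for 1 count in replicate 2. Pdlim1, at chr19:40221173-40271842, was the simplest, with 94 of 105 and 111 of 121 counts on Pdlim1-201 of 7 exons, and a Genomic model over the last exon with 8 and 4. Its annotated first donor was used in 97.9% and 96.6% of counts and its last acceptor in all of them.

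Pdlim3, at chr8:45885461-45919548 on the plus strand, had 35 of 49 and 23 of 37 counts on Pdlim3-201, of 7 exons. A NNC model of 3 exons had 4 and 6 counts, and Pdlim3-203, of 8 exons, 3 and 2. A NIC model of 7 exons had 3 and 1, and an ISM model of 1 exon 3 and 0. The gene is known for muscle forms that differ in the exons between the PDZ and the LIM domain, and the alternative coding exons are shown in capitals with 10 bases of each neighbour.
Pdlim3 exon of 188 bases, chr8:45908469-45908656: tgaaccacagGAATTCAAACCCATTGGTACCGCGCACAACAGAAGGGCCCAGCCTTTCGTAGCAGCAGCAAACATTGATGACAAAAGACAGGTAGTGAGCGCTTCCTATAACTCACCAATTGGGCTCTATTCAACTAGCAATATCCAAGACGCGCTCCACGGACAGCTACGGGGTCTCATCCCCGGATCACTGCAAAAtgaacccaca
Pdlim3 exon of 68 bases, chr8:45909019-45909086: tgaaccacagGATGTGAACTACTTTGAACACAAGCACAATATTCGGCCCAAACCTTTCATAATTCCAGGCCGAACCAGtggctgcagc

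The 188-base exon was in 83.3% (35 of 42) and 88.9% (24 of 27) of spanning counts, the 68-base exon in 14.3% and 11.1%, and a 264-base exon, chr8:45913697-45913960, in 7.14% and 7.41%. No model joined the 188-base exon to either of the others. The 68-base exon came with the 264-base exon in 3 and 2 counts and alone in 3 and 1. On annotated models only, the mean share of the 68-base exon was 7.95% in place of 12.7%.

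**Figure D5:**
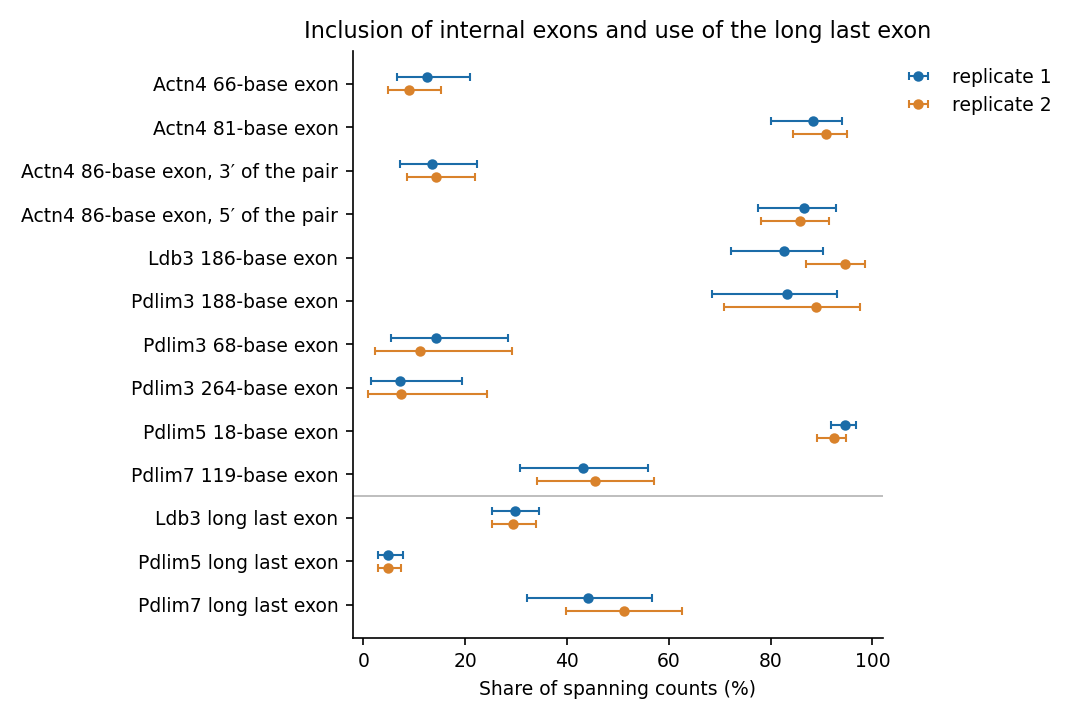
Share (%) of spanning counts that include each internal exon (above the line) and share of last exons that are the long one (below the line), in replicate 1 (blue) and replicate 2 (orange), with exact 95% binomial intervals. The intervals of the 2 libraries overlap for every exon. The long last exon is rarest in Pdlim5 and has its highest shares in Pdlim7. In replicate 1 the interval of Pdlim7 (32.1 to 56.7) overlaps that of Ldb3 (25.3 to 34.6), so their order is not resolved there.

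Myoz2 lies at chr3:123006206-123035015 on the minus strand. Myoz2-201, of 6 exons, held 1211 of 1414 and 1119 of 1306 counts (85.6% and 85.7%), and no other model reached 5%. Exon 2 had 89 bases, chr3:123034192-123034280, in 1308 and 1214 counts, and a longer annotated form of 139 bases, with the same 5′ edge, in 32 and 35. Set against models that skip exon 2 whole, the longer form was in 66.7% (32 of 48) and 70.0% (35 of 50), while 1321 and 1222 counts with other forms of the exon were in neither number. With those counted as not included, the mean share was 2.54% in place of 68.3%. A 172-base exon after it was included in 2.87% and 3.55% of counts.

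Flnc, at chr6:29433256-29461883 on the plus strand, was seen mostly as fragments from its 3′ end. Flnc-202, of 47 exons and 8939 bases, held 1 and 3 counts of 40 and 42, and 10 models reached 5% of the counts in either library. All but Flnc-202 were ISM models that ended in the annotated last exon, from that exon alone (8 and 3 counts) to the last 27 exons (0 and 3). Coverage climbed step by step, from 1 and 4 counts at exon 1 to 17 and 21 at exon 40 and 39 and 42 at exon 47. The first donor most used in replicate 1 had 7 of 32 and 3 of 39 counts, and that most used in replicate 2 had 2 and 5, so no start stood out in both libraries.

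Apart from Actn2, the share tests found no difference past the threshold among these genes. In 7 of them the most counted annotated transcript could be set against the others annotated for that gene, and 0 passed by Fisher's exact test, with 0 at an unadjusted p under 0.05 (background 0.0380% of 2633 genes). For the last splice acceptor, 0 of 8 passed and 0 were under 0.05 unadjusted, and over 3168 genes 0% passed, with 74 under 0.05 unadjusted. For internal exons 0 of 56 passed, where 0% of 13062 did, and for splice-site choices 0 of 56. These tests compare the 2 libraries with counting error alone, and small differences were not detectable at 20 to 100 counts.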

How the data were processed

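Long-read counts of 2 libraries of 1 group were used. Per the labels, each started from 2 µg of total RNA with spike-ins. Both descriptions name the same tissue sample, while other labels give different numbers and call them biological replicates. The values are raw counts of reads per transcript model, deposited by the authors without normalization, with mm10 and GENCODE M21 named in the files' notes. Novelty classes are the authors', and models not in the reference have the source name TALON. For aligner, tool versions and filters: not given in the sources used here.

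Counts were summed per reference gene and divided by the library's total on such genes (CPM). Models were matched between libraries by intron chain. Genes with a summed count of at least 10 were compared by a two-sided exact binomial test, and shares with at least 20 counts in each library by Fisher's exact test, each with Benjamini-Hochberg adjustment over the whole table and a threshold of 0.05. The splice-site test was not in the planned design and was added after seeing the data. Log2 ratios use a pseudocount of 1 CPM. Tests were tried on simulated data, where the gene test recovered 168 of 200 changed genes among 10103. The simulated counts held counting error only, and a fixed large change was set only in well-counted genes. That rate therefore does not hold for members with few counts or for small log2 ratios. Intervals are exact at 95%, binomial within each library, and so cover counting error only. The reads carry no stated molecular identifiers, so repeated reads of a molecule could not be told apart.

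All 10 members were described, with models of at least 5% of a gene's counts in either library and internal exons included in 5 to 95%. One gene of the family list is not reported here. The members and gene lists were chosen with earlier results of these data known. An exon's coverage is the counts of models over its midpoint. Exon sequences are from GENCODE M21 transcripts and promoters from RefSeq (GRCm38.p6). They are reference sequence, not read from the hybrid animals. Python 3.11.15, scipy 1.17.1, edgeR 4.0.16 and DESeq2 1.42.0 (size factors) were used.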

Additional observations from a re-analysis of the deposited data

How the results depend on the processing

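Of all genes, 331 passed the threshold between the libraries and 220 with the length trend removed. By edgeR's exact test, with a common dispersion estimated from these same 2 libraries, 22 passed. Higher in replicate 1 were 168, against 243 under TMM scaling and 12 by edgeR. Higher in replicate 2 were 163, against 91 under TMM scaling, 88 with the length trend removed and 10 by edgeR. Of the members, 0 passed, against 1 under TMM scaling (Myoz2, higher in replicate 1), 1 with the length trend removed (Actn2, higher in replicate 1) and 1 of 9 with reference transcripts only (Actn2, 0.20, higher in replicate 2). On that last basis Pdlim5 fell from 369.6 to 6.43 CPM, Flnc from 38.6 to 2.92, Pdlim7 from 72.5 to 31.6 and Ldb3 from 443.5 to 274.2.

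Dominant transcript shares passed in 1 gene, and in 51 when incomplete models joined the others. Then 1 member, Actn2, passed, at 60.4% in place of 99.6% (adjusted p = 7.8e-11, Fisher's exact test). Shares on unannotated models passed in 12 genes, in 3 with multi-exon models only and in 57 without ISM models, where 0 members passed and Actn2 fell from 40.6% to 3.38%. First donor shares passed in 6 genes and in 3 without ISM models, with 0 members and Actn2 at 99.2% in place of 61.0%. Last acceptor shares passed in 0 genes and in 1 without ISM models, exon inclusion in 0 and in 8 with overlapping exons as not included, and splice-site choices in 2 and in 1 with annotated models only. Without a call in either fit, the log2 ratio of Pdlim5 went from 0.16 to -0.70 with reference transcripts only, and that of Flnc from 0.06 to -0.02 under TMM scaling and in edgeR and to -0.12 with the length trend removed. Without replicate 2 the mean of Actn1 was 3.78 CPM in place of 7.05. Without replicate 1 the first donor share of Flnc was 7.69% in place of 14.8%. The first donor share of Ldb3 was 98.3% without ISM models in place of 57.6%, and its dominant transcript share 49.3% with incomplete models among the others in place of 88.6%. Further shares of members that moved by more than 1.5 times stand beside their results. Of the members' other values, none lost or gained a call or changed the sign of a level difference under these alternatives. No other level or share moved by more than 1.5 times. Small log2 ratios did so without a call. Under TMM scaling that of Pdlim1 went from 0.20 to 0.11, that of Ldb3 from 0.18 to 0.10 and that of Pdlim5 from 0.16 to 0.07. With reference transcripts only that of Pdlim7 went from 0.25 to 0.41. The cause of each change was not tested. No paired analysis was possible because there is only 1 group. The unannotated-without-ISM, overlap and splice-site alternatives were chosen after seeing the data. Leaving out a library leaves no comparison. Depth limits Actn1, Pdlim3 and Flnc most, with 4 to 49 counts per library.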
